A study of Rattus norvegicus with 4 samples.

Results

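The genes described here encode the pumps that remove calcium from the cytosol and the channels that release it from the endoplasmic reticulum, measured in the crista ampullaris of the rat. The 10 genes were chosen by name: the plasma membrane calcium pumps Atp2b1 to Atp2b4, the endoplasmic reticulum pumps Atp2a2 and Atp2a3, the inositol trisphosphate (IP3) receptors Itpr1 to Itpr3 and the ryanodine receptor Ryr1. All 10 members had a probe, 12 probes in all out of 33849 gene probes on the array, which covered 12323 named genes. The layers were cut by laser capture, chosen by morphology. The supporting cell layer, taken after the other, is made of the cell bodies beside the basal lamina, and the hair cell layer contains both hair cell types together with intervening cytoplasm of supporting cells. Each layer was measured on 2 single-colour arrays. Both groups were rat tissue (Rattus norvegicus) with no treatment named, and strain, age and pooling of animals are not given in the sources used here.

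Calcium enters hair cells through transduction channels at the hair bundle and through voltage-gated channels at the synapse. Plasma membrane pumps use ATP to push it out across the cell surface, and the pump encoded by Atp2b2 is known as the main calcium pump of stereocilia, whose loss causes deafness and imbalance in mice. Endoplasmic reticulum pumps load the internal store, and IP3 receptors open that store after phospholipase C has made IP3. Ryanodine receptors, best known from muscle, release the same store when calcium itself rises.

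Of the 10 genes, 6 had a probe above background and were tested. Atp2b2, Atp2a2 and Itpr2 were lower in the supporting cell layer than in the hair cell layer, and none of the 6 was higher there. Atp2b1, Atp2a3 and Itpr1 were above background on all 4 arrays and failed to pass the test. Atp2b3, Atp2b4, Itpr3 and Ryr1 were not above background on any array. Differences are log2 values, supporting minus hair cell layer, from limma (2 arrays per layer), with its standard error, and a gene is called at a Benjamini-Hochberg adjusted p under 0.05 over all tested probes. The 3 of 6 called members stand beside 65.4% of all 7768 tested genes, each at its brightest probe. Itpr2 entered the test through the hair cell layer alone, and of the 5 members above background on all 4 arrays 2 were called. The 3 called lower in the supporting cell layer stand beside 37.2% of all tested genes, and the 0 called higher there beside 28.2%. Both supporting cell layer arrays lay below both hair cell layer arrays for 4 of the 6, as they did for 48.9% of all tested genes. In no member did the order run the other way, and over all tested genes the layers were apart in 1 direction or the other for 89.2%. The median difference was -0.78 over the 6 tested members and -0.10 over all tested genes. With genes undetected in a layer held at their limit, as explained for Itpr2, the median over all tested genes was -0.05. The median of the members could not change in this way. Itpr2 alone was undetected in a layer, and at its limit it stayed on the same side of that median.

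The arrays limit these values in several ways. The scanner software called 39.7% to 39.8% of gene probes above background on the supporting cell layer arrays and 45.6% to 48.8% on the hair cell layer arrays. The median raw intensity was 11.9 to 12.1 in the supporting cell layer, against 16.9 to 25.1 in the hair cell layer. Across the array 11112 of 16483 tested probes (67.4%) were called, 5527 (33.5%) higher and 5585 (33.9%) lower in the supporting cell layer. Without any normalization between arrays, the counts were 2364 higher and 8838 lower there, and the median difference over all tested genes was -0.79. Every direction given here is therefore relative to the quantile normalization of the arrays. Nothing in the labels ties the replicate arrays to different animals. The p-values thus rest on array-to-array spread alone, which may be technical, and the number of arrays limits the precision. A layer with fewer cells of a type and a layer with less of an RNA per cell cannot be told apart. An exact permutation test of 2 arrays against 2 cannot go below a two-sided p of 0.333.

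**Figure D1:**
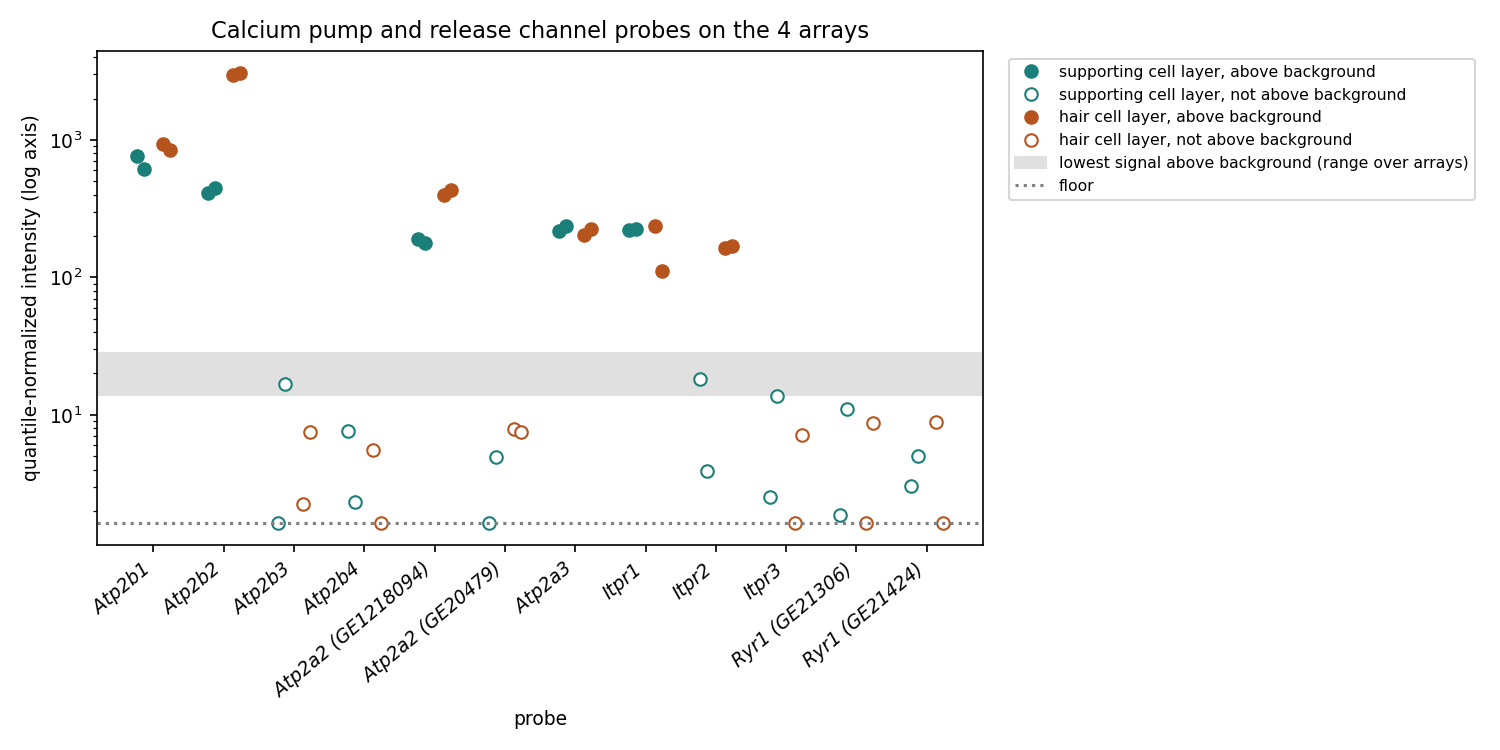
Quantile-normalized intensity (log axis) of all 12 probes, with the 2 supporting cell layer arrays left of the 2 hair cell layer arrays of each probe. Filled points were above background and open points were not, and values below the floor of 1.65 are drawn at it. Atp2b1, Atp2b2, Atp2a2 and Itpr2 have both supporting cell layer points below both hair cell layer points, while 6 probes stayed below background on every array.

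Atp2b2 had the largest difference among the members detected on all 4 arrays. Its probe had a normalized intensity of 413 and 450 in the supporting cell layer, against 2961 and 3059 in the hair cell layer. The replicates of each layer lay close together and the layers did not overlap. The raw intensities, before any normalization, were 322 and 330 in the supporting cell layer, against 3732 and 3440 in the hair cell layer. The difference was -2.80 ± 0.08, a fold of 6.99, with an adjusted p of 0.00118 and a 95% interval of -3.06 to -2.55. Among the 5750 genes detected on all 4 arrays, 32 (0.557%) had a lower difference. Atp2b2 was nevertheless above background on both supporting cell layer arrays.

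Atp2b1 encodes the plasma membrane pump found in most tissues. Its intensity was 770 and 610 in the supporting cell layer, against 941 and 851 in the hair cell layer. Both supporting cell layer values were the lower ones, but the spread between those 2 arrays was close to the gap between the layers. The difference of -0.39 ± 0.16 did not pass the test (adjusted p = 0.109), and its 95% interval of -0.86 to 0.09 includes 0. Without supporting cell layer replicate 1 the difference was -0.55 and passed (adjusted p = 0.0461). It passed as well when limma modelled an intensity trend (adjusted p = 0.0306) and when only probes detected on all 4 arrays were tested (adjusted p = 0.0429). Without normalization it was -1.10 (adjusted p = 0.0136).

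Atp2b3 and Atp2b4 complete the plasma membrane pumps, Atp2b3 being known mainly from neurons. The raw signal of the Atp2b3 probe was -2.63 and 12.0 in the supporting cell layer, against 3.07 and 7.57 in the hair cell layer. That of the Atp2b4 probe was 6.71 and 1.90 in the supporting cell layer, against 6.86 and 1.56 in the hair cell layer. These values lie in the range of the negative control spots, whose median raw signal was 4.14 to 4.30 in the supporting cell layer, against 4.76 to 5.54 in the hair cell layer. The lowest raw signal that the software called above background was between 18.9 and 20.3 on the 4 arrays, so no difference was detectable for these genes at this signal.

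Atp2a2 encodes the endoplasmic reticulum pump of most cell types and, as another splice form, of heart and slow muscle. Of its 2 probes, the brighter had an intensity of 189 and 178 in the supporting cell layer, against 398 and 436 in the hair cell layer. The layers did not overlap and differed by far more than the replicates of either. The difference was -1.18 ± 0.09, a fold of 2.27, with an adjusted p of 0.00303. On the normalized values of the scanner software it was -1.05 and no longer passed (adjusted p = 0.0533). The other probe of the gene was not above background on any array, with raw signals of -1.37 and 4.30 in the supporting cell layer, against 9.95 and 7.58 in the hair cell layer. Both probes carry the same accession in the array files, while the platform annotation gives them different ones; their positions in the transcript are not given in the sources used here.

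Atp2a3, an endoplasmic reticulum pump known from blood cells, endothelium and some epithelia, had an intensity of 219 and 236 in the supporting cell layer, against 203 and 224 in the hair cell layer. The layers overlapped. The difference was 0.09 ± 0.10 (adjusted p = 0.450), with a 95% interval of -0.20 to 0.38, so that a change of more than about that size in either direction lies outside the interval. The direction depends on the scaling. The raw intensities were 171 and 176 in the supporting cell layer, against 266 and 259 in the hair cell layer, and without normalization the difference was -0.59 and passed the test (adjusted p = 0.0151).

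**Figure D2:**
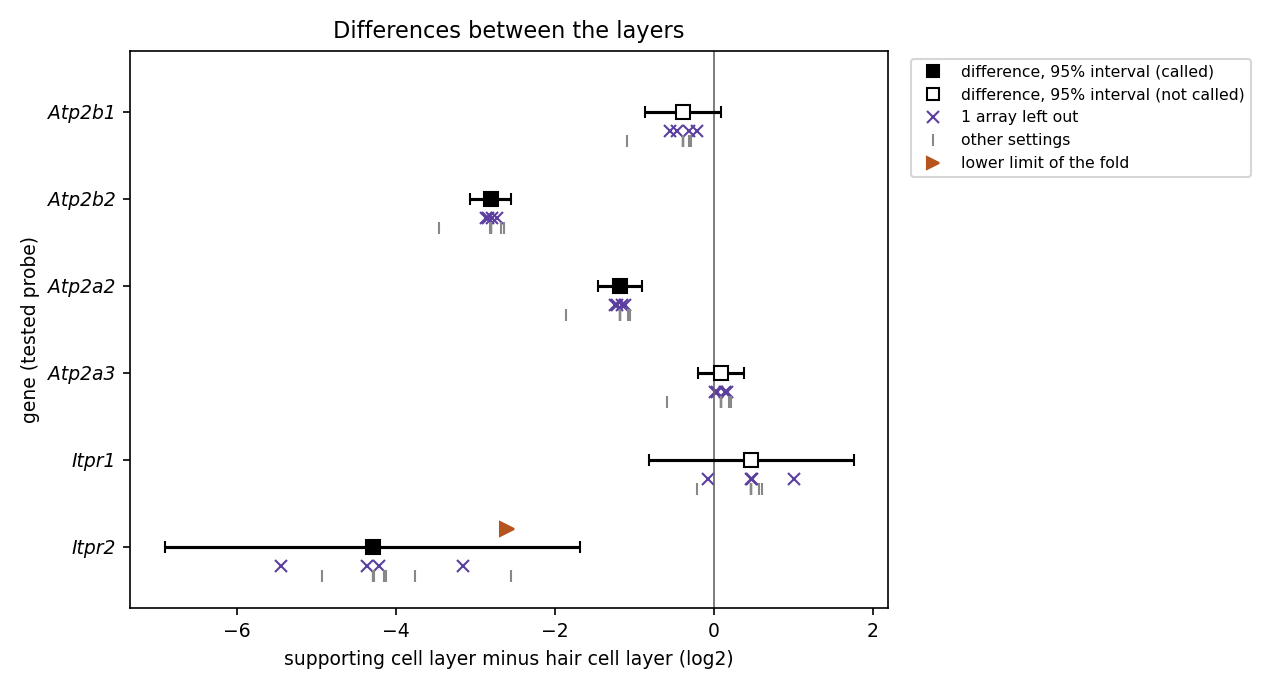
Difference of each tested member between the layers (supporting minus hair cell layer, log2), with the 95% interval from limma; filled squares passed the test. Crosses are fits with 1 array left out, ticks other settings (the isolated tick to the left of Atp2b1, Atp2b2, Atp2a2, Atp2a3 and Itpr1 is the fit without normalization), and the triangle is the limit of 6.04-fold for Itpr2; only Itpr1 and Atp2a3 had fits on both sides of 0.

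Itpr2, an IP3 receptor subtype common in glia, secretory epithelia and heart, was above background only on the hair cell layer arrays. Its normalized intensity was 18.3 and 3.93 in the supporting cell layer, both below background, against 163 and 169 in the hair cell layer. The raw signals were 13.1 and 3.41 in the supporting cell layer, against 213 and 195 in the hair cell layer. Because the supporting cell layer signal is only bounded, the hair cell layer was at least 6.04-fold higher. This limit sets the mean of the brighter layer against, per array, the higher of the probe's own value and the lowest signal above background. That signal was 26.6 and 28.3 on the supporting cell layer arrays. The limit carries no replicate error, and the threshold varied between spots. Atp2c2 was below background at 33.9 on supporting cell layer replicate 2. The limits given for other genes are of the same kind. The fitted difference of -4.29 ± 0.87 passed the test (adjusted p = 0.0228) and is no measure of size. Itpr2 met the filter on dim probes through the hair cell layer alone, so its call is no independent support for the difference. The call was lost without hair cell layer replicate 1 (adjusted p = 0.102), without hair cell layer replicate 2 (adjusted p = 0.116) and without the filter on dim probes (adjusted p = 0.0718).

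Itpr1, the IP3 receptor subtype known for its abundance in cerebellar Purkinje cells, was detected on all 4 arrays. Its intensity was 223 and 224 in the supporting cell layer, against 235 and 111 in the hair cell layer. The supporting cell layer arrays agreed closely, while the hair cell layer arrays stood on opposite sides of them. The difference was 0.47 ± 0.43 (adjusted p = 0.381), with a 95% interval of -0.82 to 1.76, too wide to show whether the layers differ. The value rests on which hair cell layer array is used. Without hair cell layer replicate 1 the difference was 1.01 and passed the test (adjusted p = 0.0251), and without hair cell layer replicate 2 it was -0.07 (adjusted p = 0.540). Without normalization it was -0.21 (adjusted p = 0.718).

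Itpr3, the IP3 receptor subtype of taste cells and many epithelia, and Ryr1, the calcium release channel of skeletal muscle, were not above background. Itpr3 had raw signals of 2.13 and 10.5 in the supporting cell layer, against 1.24 and 7.20 in the hair cell layer. The probes for Ryr1, 2 in number, had 1.51 and 9.06, and 2.58 and 4.39, in the supporting cell layer. In the hair cell layer they had 1.41 and 8.82, and 11.2 and -2.21. No raw signal of the 6 undetected member probes exceeded 12.0. Of the other ryanodine receptor types, known from heart and brain, Ryr3 was not above background on any array. Ryr2 had an intensity of 9.03 and 6.49 in the supporting cell layer, both below background, against 21.97 and 23.21 in the hair cell layer. It was called lower in the supporting cell layer (adjusted p = 0.00825), but its hair cell layer signal lay under the lowest signal above background on the supporting cell layer arrays, so no fold is given. On hair cell layer replicate 1 its raw signal of 33.1 also lay under the 95th percentile of the negative control spots, 35.2.

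The sequence upstream of the 3 genes called lower in the supporting cell layer is shown. Whether these genes vary together was not tested. The 250 bases before each transcription start were taken from RefSeq (GRCr8). Capitals mark GGGCGG and its reverse complement CCGCCC, searched on both strands. Each is written 5′ to 3′ on the strand of the gene.
Atp2b2, chr4:148763654-148763903, minus strand: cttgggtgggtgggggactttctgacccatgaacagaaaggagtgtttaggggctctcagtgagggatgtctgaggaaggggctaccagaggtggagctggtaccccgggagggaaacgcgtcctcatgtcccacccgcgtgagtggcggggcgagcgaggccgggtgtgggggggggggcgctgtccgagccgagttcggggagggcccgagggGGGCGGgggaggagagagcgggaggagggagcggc
Atp2a2, chr12:39733269-39733518, plus strand: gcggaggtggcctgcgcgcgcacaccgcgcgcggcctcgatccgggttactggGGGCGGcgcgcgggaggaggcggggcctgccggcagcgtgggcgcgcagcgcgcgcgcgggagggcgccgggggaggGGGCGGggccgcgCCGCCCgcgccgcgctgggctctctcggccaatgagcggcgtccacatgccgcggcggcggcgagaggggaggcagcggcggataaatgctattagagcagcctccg
Itpr2, chr4:181134868-181135117, minus strand: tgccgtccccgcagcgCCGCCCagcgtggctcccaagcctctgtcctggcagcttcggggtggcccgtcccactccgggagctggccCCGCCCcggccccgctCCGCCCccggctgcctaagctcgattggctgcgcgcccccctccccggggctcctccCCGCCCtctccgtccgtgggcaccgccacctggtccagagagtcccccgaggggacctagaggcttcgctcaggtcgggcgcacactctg
The 3 windows were 69.2%, 80.0% and 76.0% G or C in the order shown, against a median of 51.2% over 33469 windows of the same length. They held 1, 3 and 4 matches to GGGCGG on either strand, a motif found at least once in 30.5% of all windows. None held TATAAA on either strand, a motif found at least once in 12.9% of all windows. The uncalled members Atp2b1, Atp2a3 and Itpr1 had 3, 4 and 0 matches to GGGCGG, in windows of 72.8%, 72.4% and 62.0% G or C. The undetected members Itpr3, Ryr1 and Atp2b4 had 5, 2 and 0 matches, in windows of 77.2%, 55.6% and 46.4% G or C. A high share of G or C was thus not particular to the called genes. The matches describe these letters only and say nothing about binding.

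**Figure D3:**
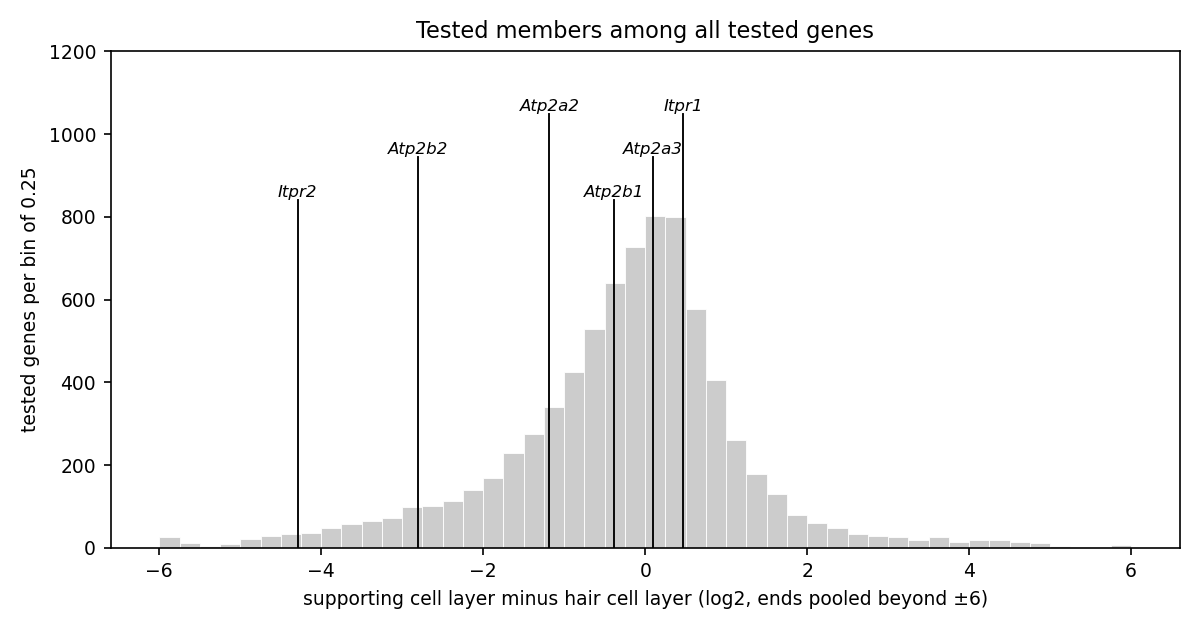
Genes tested, taken at the brightest probe, counted by difference between the layers (supporting minus hair cell layer, log2, bins of 0.25), with a line at each tested member; the line heights carry no value. Atp2b2 and Itpr2 lie in the left tail, Atp2a2 on the left shoulder, and Atp2b1, Atp2a3 and Itpr1 in the bulk; the position of Itpr2 is a fitted value and not a measured size.

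Genes whose values over the 4 arrays were most like those of the called members were sought among 6429 named probes detected on all 4 arrays. The measure was the root mean square distance between log2 values centred on each probe's mean. The nearest to Atp2b2 were Traf3 at 0.048, Ildr1 at 0.051 and Dpy30 at 0.059. The nearest to Atp2a2 were Retreg2 at 0.017, Bcas2 at 0.019 and Tox at 0.020. With 4 arrays, 2 to a layer, this measure sees little more than the size of the difference between the layers.

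The 6 lists of other calcium genes were set beside the members. Their 99 gene symbols include older names of Nherf1 and Nherf2, which were also listed under these names. Of the 99 symbols, 83 had a named probe and 58 were tested. Of the 58, 14 were higher and 29 lower in the supporting cell layer, while 15 failed the test. Erlin1, Erlin2, Ryr2, Inpp5a, Sln, Slc8a1, Trpc1 and Orai2 among the lower met the filter on dim probes through the hair cell layer alone. Slc8a2 among the higher met it through the supporting cell layer alone. When only probes detected on all 4 arrays were tested, 13 were higher and 20 lower, beside 4836 and 3598 of 11059 probes across the array. The 14 (24.1%) and 29 (50%) of the main fit stand beside 28.2% and 37.2% of all tested genes. The median difference was -0.37 over the 58 genes against -0.10 over all tested genes. Without normalization the counts were 4 higher and 35 lower, beside 2364 and 8838 of 16483 probes across the array. On the scanner software's values they were 7 and 19, beside 3238 and 3641 of the same number of probes. The count was 24 without hair cell layer replicate 1 and 25 without hair cell layer replicate 2, against 43 called with all arrays.

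Among partners and regulators of the pumps, 11 of 14 tested were lower in the supporting cell layer, none was higher and 3 did not pass. With median scaling the count of 11 became 7, with the scanner software's own values 4, and without normalization 12. Neuroplastin (Nptn) and basigin (Bsg), the glycoproteins that form subunits of plasma membrane calcium pumps, differed by -1.82 ± 0.13 and -1.14 ± 0.08. Nptn had an intensity of 107 and 115 in the supporting cell layer, against 430 and 359 in the hair cell layer. Bsg had 733 and 780 in the supporting cell layer, against 1690 and 1640 in the hair cell layer. On the scanner software's values Bsg lost its call (adjusted p = 0.0537). The other tested probe of each gene had the same sign, at -1.81 and -0.60. The calcium and manganese pump of the Golgi, Atp2c1, differed by -1.37 ± 0.09 at the 1 of its 3 probes that was tested. Sarcolipin (Sln), an inhibitor of endoplasmic reticulum pumps in muscle, was below background in the supporting cell layer, and the hair cell layer was at least 2.90-fold higher. That call was lost without hair cell layer replicate 1 (adjusted p = 0.0609) or 2 (0.0808). Of 9 skeletal muscle marker genes with a probe, Myh2 alone was above background, at 9.93 and 8.79 in the supporting cell layer, both below background, against 295 and 305 in the hair cell layer. Acta1, Ckm, Myh1, Myh4, Tnnt3, Tnni2, Myl1 and Mb were not above background on any array. The part of muscle tissue in the values of Sln or of the members was not tested.

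Partners and regulators of the release channels went both ways, with 3 of 12 tested higher in the supporting cell layer and 5 lower, against 0 and 6 without normalization. The scaffold protein gene Homer1, whose product ties receptors to IP3 receptors, had an intensity of 85.1 and 63.9 in the supporting cell layer, against 360 and 391 in the hair cell layer (-2.35 ± 0.18). Its second tested probe had the opposite sign, 0.84. Calreticulin (Calr), a calcium-binding chaperone of the store, differed by -1.36 ± 0.09. Erlin1 and Erlin2, which take part in the breakdown of activated IP3 receptors, were below background in the supporting cell layer, and the hair cell layer was at least 4.21-fold and 2.06-fold higher; for Erlin1 the spot of supporting cell layer replicate 1 was left out, so that layer rests on 1 array. Without hair cell layer replicate 1 (adjusted p = 0.0507 and 0.0785) or replicate 2 (0.0530 and 0.0918) both calls were lost. Ahcyl2, a relative of a protein that binds IP3 receptors, was higher in the supporting cell layer (1.01 ± 0.15) at the 1 of its 5 probes that was tested. That call was lost under 2 of 15 alternatives, among them the fit without the filter on dim probes (adjusted p = 0.0599). Sorcin (Sri), which binds ryanodine receptors, had a difference of 0.34 ± 0.08 at its brighter probe, of opposite sign without normalization, and of -2.84 at its other probe.

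Genes of IP3 production and breakdown also went both ways, 6 of 12 tested higher in the supporting cell layer and 4 lower, against 3 and 6 without normalization. The phospholipase C genes Plcb3 (1.71 ± 0.07) and Plcd3 (1.39 ± 0.08) were higher there. Plcb3 had an intensity of 238 and 235 in the supporting cell layer, against 73.3 and 71.5 in the hair cell layer. Plcd3 had 568 and 606 in the supporting cell layer, against 219 and 227 in the hair cell layer. The kinase gene Itpkc, whose product adds a phosphate to IP3, differed by -1.32 ± 0.13, and the inositol monophosphatase gene Impa1 by -1.30 ± 0.08. Inpp5a, encoding a phosphatase that acts on IP3, was below background in the supporting cell layer, and the hair cell layer was at least 1.19-fold higher. That call was lost without hair cell layer replicate 1 (adjusted p = 0.0835) or 2 (0.103).

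**Figure D4:**
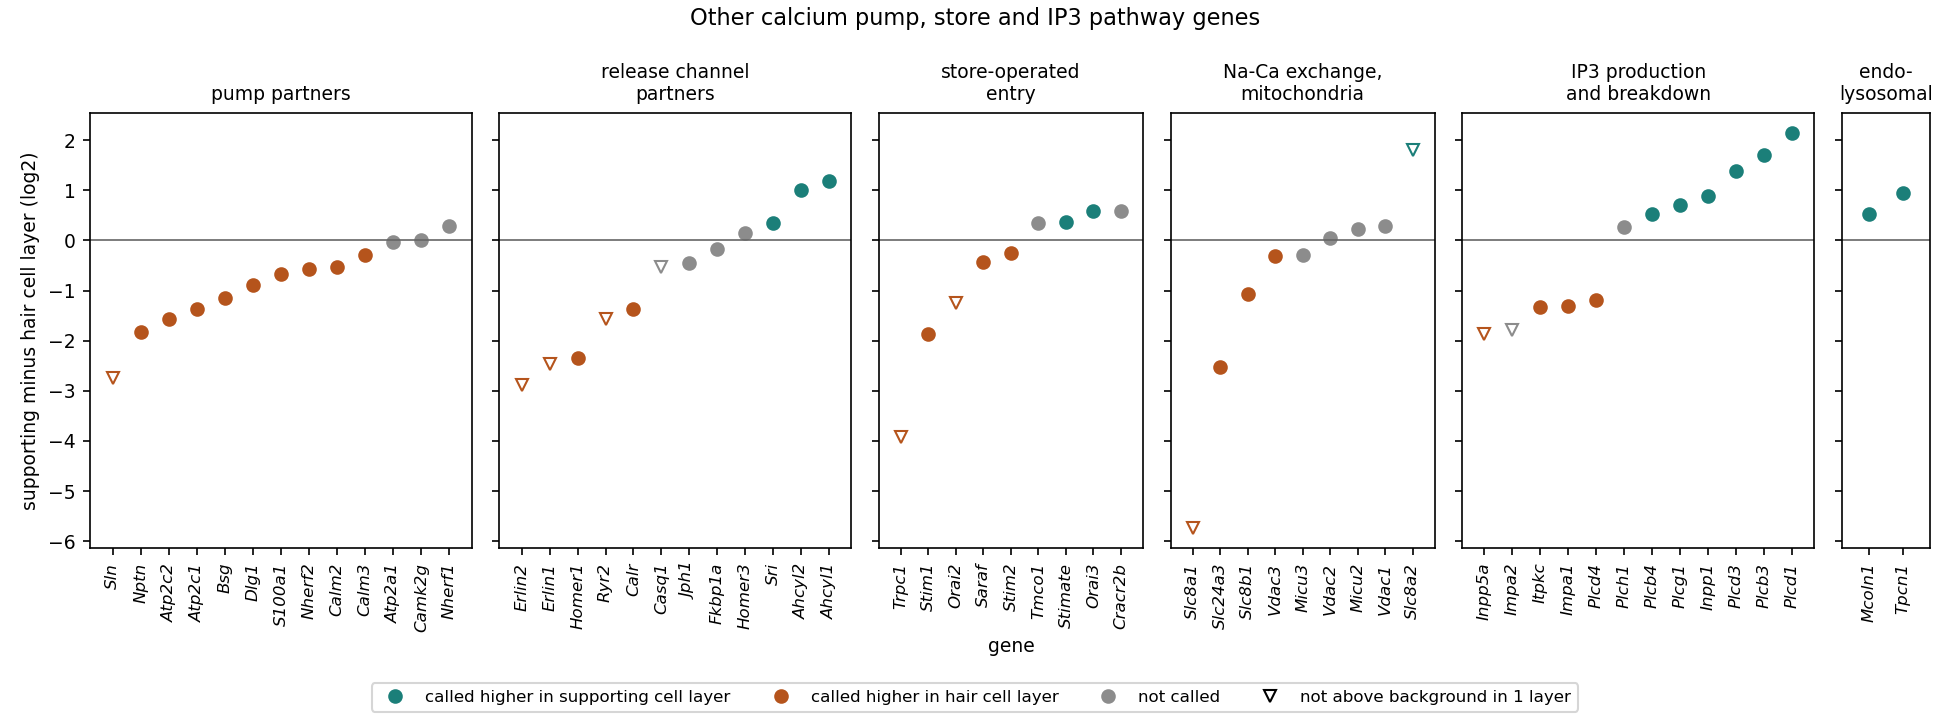
Difference between the layers (supporting minus hair cell layer, log2) of the tested genes in the 6 lists, at the brightest probe of each, without 1 pump partner that is not reported here. Teal points were called higher and brown points lower in the supporting cell layer, grey points were not called, and open triangles were not above background in 1 layer, so their fitted value is no measure of size. Of the 13 pump partners drawn 10 are brown and none is teal, and the IP3 list holds 6 teal and 4 brown points.

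Of the sodium-calcium exchange and mitochondrial list, 1 of 9 tested was higher in the supporting cell layer and 4 were lower, with 6 lower without normalization and 2 on the scanner software's values. The potassium-dependent exchanger gene Slc24a3 had an intensity of 234 and 231 in the supporting cell layer, against 1380 and 1286 in the hair cell layer (-2.52 ± 0.08). The mitochondrial exchanger gene Slc8b1 differed by -1.07 ± 0.08 and the outer membrane channel gene Vdac3 by -0.31 ± 0.08. Slc8b1 lost its call on the scanner software's values (adjusted p = 0.0736), and Vdac3 under 8 of 15 alternatives, each fit with 1 array left out among them (adjusted p 0.0769 to 0.125). The plasma membrane exchanger genes Slc8a1 and Slc8a2 were each detected in 1 layer. Slc8a1 had an intensity of 4.77 and 2.49 in the supporting cell layer, below background, against 184 and 186 in the hair cell layer, which was at least 6.73-fold higher. These are values of the 1 of its 3 probes that was tested. Slc8a2 had 49.3 and 46.0 in the supporting cell layer, against 14.7 and 12.8, below background, in the hair cell layer, and was at least 2.89-fold higher in the supporting cell layer.

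Of 9 tested genes of store-operated entry, 5 were lower and 2 higher in the supporting cell layer, against 5 and 0 without normalization. The channel gene Orai3 (0.58 ± 0.10) and Stimate (0.37 ± 0.07), whose product assists the store's calcium sensors, were higher there, both with the opposite sign without normalization. Saraf, encoding an inhibitor of this entry (-0.44 ± 0.08), and the sensor gene Stim2 (-0.25 ± 0.07) were lower, and the other tested probe of Stim2 had the opposite sign, 2.34. None of these 4 calls held under median scaling, on the scanner software's values or without the filter on dim probes. Trpc1 and Orai2, both channel genes, were below background in the supporting cell layer, and the hair cell layer was at least 2.10-fold and 1.91-fold higher. Both calls were lost without hair cell layer replicate 1 (adjusted p = 0.142 and 0.114), without hair cell layer replicate 2 (0.145 and 0.107) and without the filter on dim probes (0.0898 and 0.0811). Of the list of endolysosomal release channels, both tested genes stood higher in the supporting cell layer, Tpcn1 by 0.94 ± 0.10 and Mcoln1 by 0.52 ± 0.14, the second with the opposite sign and neither called without normalization.

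Markers of cell types were also compared between the layers, and several lists went both ways. All 14 hair cell markers were tested, and 12 were lower in the supporting cell layer, none higher; the list does not contain Atp2b2. Their median difference was -1.68, or -1.33 with undetected genes at their limit, and 5 of the 14 had a lower fitted difference than Atp2b2. Among these 5, Cdh23, Espn and Myo7a were below background in the supporting cell layer, so their fitted values are no measure of size. For Espn and Myo7a the limits of 3.69-fold and 2.10-fold lay under the 6.99-fold of Atp2b2, and Myo7a was not called. The summed intensity of the list was 5614 and 5395 in the supporting cell layer, against 10524 and 11279 in the hair cell layer, and 10 of the 14 were above background on both supporting cell layer arrays. The other 4, Cdh23, Espn, Myo7a and Lhfpl5, were below background on both. Cdh23, a tip link cadherin, was below background in the supporting cell layer, with the hair cell layer at least 15.7-fold higher. Grxcr1, a gene of stereocilia, was above background on all 4 arrays and differed by -3.10 ± 0.13. Of 13 tested supporting cell markers 6 were higher and 4 lower in the supporting cell layer, against 2 and 5 without normalization, and their summed intensity was 23403 and 24209 in the supporting cell layer, against 24895 and 24655 in the hair cell layer. The sum of a list is set mainly by its brightest genes. Of 5 tested markers of afferent neurons, 3 were higher (Gria2, Kcna1 and Gap43) and 2 lower (Nefl and Nefm) in the supporting cell layer. Their summed intensities were 944 and 922, against 278 and 312 in the hair cell layer. Gria2 alone had 575 and 574, against 33.6 and 42.1. Nefl and Nefm were above background in the hair cell layer alone, and Nefh and Syn1 were not above background on any array. Of 6 tested endothelial markers 4 were higher and 1 lower, with sums over 5 genes of 968 and 979 in the supporting cell layer, against 448 and 530 in the hair cell layer, and Kdr was undetected. Of 6 tested connective tissue markers 3 were higher and 1 lower, with sums of 2299 and 2353 in the supporting cell layer, against 991 and 1006 in the hair cell layer, and Lum was undetected. Of 5 tested Schwann cell markers 1 was higher and 2 were lower, with sums of 3385 and 3328 in the supporting cell layer, against 3022 and 3056 in the hair cell layer, and Mbp was undetected. Of 6 tested immune markers 2 were higher and 3 lower, with sums over 4 genes of 73.1 and 76.8 in the supporting cell layer, against 280 and 298 in the hair cell layer, and Ptprc and C1qb were undetected. Of 3 tested blood and platelet markers 1 was higher and none lower, with sums of 226 and 225 in the supporting cell layer, against 44.2 and 75.3 in the hair cell layer, and Pf4, Ppbp, Gp9 and S100a8 were undetected. Of 2 tested smooth muscle and pericyte markers 1 was higher and 1 lower, with sums of 73.7 and 77.1 in the supporting cell layer, against 181 and 175 in the hair cell layer, and Acta2, Tagln, Cnn1 and Pdgfrb were undetected. Without normalization the counts higher and lower were 2 and 3 for connective tissue, 0 and 4 for Schwann cells, 0 and 4 for immune cells, 2 and 2 for neurons, and 3 and 1 for endothelium. The part of these cell types in the differences of the calcium genes was not tested.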

How the data were processed

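Per the file headers, each array was quantified with CodeLink Expression Analysis 4.0.0.23520. The deposited raw intensity holds values below 0, as after background subtraction, and the deposited normalized intensity equals raw intensity over the median stated in each header. Probes were named through the platform annotation, matched by value to the deposited series table, with symbols updated to RefSeq (GRCr8). In that table the values for replicate 2 of the supporting cell layer matched the scanner file at 3 of 35125 lines, and were not used.

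Contaminated, irregular and failed spots were left out. Raw intensities were quantile-normalized, raised to a floor of 0.1 of the median and taken to log2. Probes above background on at least 2 of 4 arrays were tested, 16483 in all, with limma 3.58.1 in R 4.3.3 (lmFit and eBayes, two-sided, Benjamini-Hochberg). The fit was also run on simulated data with independent noise and few changed probes, which cannot show the error rate on these arrays. A gene was taken at its brightest tested probe. Named from each calcium list were the 4 largest called differences among probes above background on all 4 arrays, and up to 2 called genes detected in 1 layer alone with the largest limit; a list under 6 tested genes was named in full. The values of 1 gene so chosen are not reported here.

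The members, the 6 calcium lists and the 10 marker lists were chosen with earlier results of these data known. Normexp could not be run, since the files hold no separate spot and background columns, nor a slide block, since each slide holds 1 array.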

Additional observations from a re-analysis of the deposited data

How the results depend on the processing

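The lower level of Atp2b2 in the supporting cell layer passed the test under all 15 alternatives, with differences from -3.46 to -2.64. Atp2a2 lost its call under 1 and Itpr2 under 3, as given with their values. The count of called members was 3, between 2 and 4 with 1 array left out, and 5 on raw intensities without normalization, a setting chosen after seeing the data. In that setting the differences of Atp2a3 (-0.59), Itpr1 (-0.21), Mcoln1 (-0.18), Sri (-0.35), Orai3 (-0.079) and Stimate (-0.33) had the opposite sign. The calls across the array numbered 6879 with the scanner software's own values, 6654 without the filter on dim probes and 7215 to 9994 with 1 array left out, against 11112. The calcium list genes called numbered 26, 25 and 24 to 36 in the same settings, against 43. With the replicate number as a block 8701 probes, 3 members and 33 calcium list genes were called; the labels share only a number between the layers, and the replicate differences of the layers correlated at -0.028 across 11059 probes. Of the 29 calcium list genes that the naming rule took, 11 kept their call and direction under every alternative run on them, 18 lost the call under at least 1 and 4 of those turned in direction. Stim2, Saraf, Stimate, Vdac3, Sri and Mcoln1 lost it in each fit with 1 array left out. Signal over background limits Atp2b3, Atp2b4, Itpr3 and Ryr1, for which nothing could be compared. Normexp and a slide block were not run.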
